A study of Mus musculus with 20 samples.

Results

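The 58 genes examined here encode glycoproteins and proteoglycans of the extracellular matrix, the enzymes and inhibitors that remodel it, and Mxra8, a membrane protein with immunoglobulin-like domains. They were chosen by symbol, by matching the Ensembl identifier of each row of the count table to a gene name, and all 58 were found among the 55416 genes listed. They fall into Mxra8 alone, 8 interstitial proteoglycans, 15 interstitial glycoproteins, 15 elastic fibre genes, 10 basement membrane genes and 9 remodelling genes. Of these, 57 had enough reads to be tested over all muscles. Mfap2, a microfibril protein of the elastic fibre list, had 235 reads in all libraries together and did not.

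Quadriceps muscles of old male C57BL/6J mice (WT, aged 26 to 28 months) were compared after a single intramuscular injection. The 10 control mice received 50 µL of saline (0.9%), and the 10 secretome mice received the same volume of a stem cell secretome product, the factors released into the medium by cells derived from human embryonic stem cells. All mice were fasted for a short time, and the muscle was taken on the day of the injection, so the data describe an early response in whole muscle of old males only. Whole muscle holds fibres, fibroblasts, tendon and fascia, vessels, nerve, fat and blood, and in such bulk RNA fewer cells of a type and less RNA per cell cannot be told apart.

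Skeletal muscle fibres are held in layers of connective tissue. Each fibre is wrapped in a basement membrane of laminins, collagen IV, nidogens and perlecan, while the interstitium between fibres carries fibrillar collagens decorated by small leucine-rich proteoglycans such as decorin and lumican. Elastic fibres are built from elastin on a scaffold of fibrillin microfibrils, with fibulins, EMILIN1 and the latent TGF-beta binding proteins attached. Most interstitial matrix RNA in muscle comes from fibroblasts and fibro-adipogenic progenitors, metalloproteinases and their tissue inhibitors (TIMPs) control its turnover, and Mxra8 is carried by mesenchymal cells and is best known as an entry receptor for arthritogenic alphaviruses.

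The libraries carry numbers from 1 to 20: controls 1 to 5 are libraries 1 to 5, controls 6 to 10 are libraries 6 to 10, secretome muscles 1 to 5 are libraries 11 to 15 and secretome muscles 6 to 10 are libraries 16 to 20. Libraries held 13.3 M to 23 M counts in control and 16.9 M to 22 M in secretome muscles. Libraries 1 to 5, all controls, stood apart from the rest. The giant fibre protein gene Ttn took 7.02 to 11% of their counts, against 16.4 to 21.1% in libraries 6 to 15. Libraries 16 to 20, all secretome muscles, lay between, at 14.2 to 14.7%. The summed level of 7 fibroblast and fibro-adipogenic markers was 797 to 1249.8 CPM (read counts scaled to library size) in libraries 1 to 5, 274 to 630.2 CPM in controls 6 to 10, 335 to 479 CPM in secretome muscles 1 to 5 and 604 to 797 CPM in secretome muscles 6 to 10. Among the fibroblast markers, Gsn alone averaged 579 CPM of a mean sum of 739 CPM in control muscles, and 409 of 533 CPM in secretome muscles. The 5 muscle fibre markers summed to 107325 to 320473 CPM in control and 203567 to 306847 CPM in secretome muscles. Of their mean sums, Ttn alone averaged 143115 of 215469 CPM in control and 176733 of 262357 CPM in secretome muscles. Treatment and library number cannot be told apart over the whole series, and only libraries 6 to 15 hold both treatments, 5 muscles each. Each result is therefore given over all 20 muscles, within libraries 6 to 15, and, where it matters, between libraries 16 to 20 and 1 to 5.

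CPM values are scaled by edgeR's trimmed mean of M-values (TMM). Fold changes are secretome over control on the log2 scale, and p-values are two-sided, from edgeR's quasi-likelihood test. Adjusted p-values are Benjamini-Hochberg values over all genes tested, and a call means an adjusted p under 5%.

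Promoter windows are shown for 4 genes whose patterns the results below turn on. Mxra8 and Emilin1 were lower on average in secretome muscles in both sets of libraries, Emilin1 with overlap in each. Ecm2 and Mmp14 had the differences that depended most on the libraries used among the genes with a window at hand. Each window spans 300 bases around the start site annotated by RefSeq on GRCm38.p6, most of them upstream, 5′ to 3′ on the strand of the gene. The counts were made on GRCm39. Capitals mark GC boxes (GGGCGG) and CCAAT boxes (CCAAT) read on either strand. In Mmp14 a CCAAT box and a GC box share 1 base.
Mxra8, chr4:155839430-155839729, plus strand: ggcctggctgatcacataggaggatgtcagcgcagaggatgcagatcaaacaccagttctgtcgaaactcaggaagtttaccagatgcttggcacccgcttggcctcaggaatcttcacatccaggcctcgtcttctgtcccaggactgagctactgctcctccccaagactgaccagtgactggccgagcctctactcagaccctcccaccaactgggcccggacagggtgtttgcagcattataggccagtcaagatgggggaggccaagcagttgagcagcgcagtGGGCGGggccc
Emilin1, chr5:30913536-30913835, plus strand: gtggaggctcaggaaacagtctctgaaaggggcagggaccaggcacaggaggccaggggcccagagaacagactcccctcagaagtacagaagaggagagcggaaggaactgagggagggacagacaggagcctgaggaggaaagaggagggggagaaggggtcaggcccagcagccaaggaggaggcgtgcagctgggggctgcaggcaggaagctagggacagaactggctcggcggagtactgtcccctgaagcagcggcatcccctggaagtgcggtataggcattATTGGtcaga
Ecm2, chr13:49504560-49504859, plus strand: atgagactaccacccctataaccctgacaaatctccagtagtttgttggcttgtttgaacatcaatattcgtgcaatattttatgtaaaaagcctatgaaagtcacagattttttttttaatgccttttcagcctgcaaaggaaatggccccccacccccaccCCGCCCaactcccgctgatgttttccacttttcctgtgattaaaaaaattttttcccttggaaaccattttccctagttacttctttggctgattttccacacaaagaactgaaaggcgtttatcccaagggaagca
Mmp14, chr14:54431348-54431647, plus strand: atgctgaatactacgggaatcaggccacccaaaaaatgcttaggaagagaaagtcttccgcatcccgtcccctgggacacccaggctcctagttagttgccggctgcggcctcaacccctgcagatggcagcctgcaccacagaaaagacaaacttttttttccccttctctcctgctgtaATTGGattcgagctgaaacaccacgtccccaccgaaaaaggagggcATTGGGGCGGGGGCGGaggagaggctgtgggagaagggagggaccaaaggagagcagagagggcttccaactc

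Mxra8 and Ecm2 each held 1 GC box, Emilin1 held 1 CCAAT box, and Mmp14 held 2 of each. Windows were at hand for 41 of the 58 genes. Of these, 27 held a GC box, 65.9% beside 35.7% of all 32851 windows, and 16 held a CCAAT box (39% beside 37.4%). A TATA box (TATAAA) stood in 6 (14.6% beside 13.6%). The AP-1 letters TGANTCA stood in 4 (9.76% beside 7.81%) and the TEAD letters GGAATG in 4 (9.76% beside 14.7%), both strands counted. None of the 4 windows printed here held a TATA, AP-1 or TEAD match, and such matches are letters in a window, not known sites.

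Levels were compared between genes only per length, as CPM per kilobase of exon (CPM per kb), using exon lengths from GENCODE M21. The most abundant transcript over the 10 control muscles was Dcn (decorin, which binds and spaces collagen fibrils) at 41.5 ± 26.3 CPM per kb (SD, n = 10). Hspg2 (perlecan, the heparan sulfate proteoglycan of basement membranes) followed at 28.3 ± 4.49 CPM per kb, then Sparc (a collagen-binding glycoprotein) at 25.9 ± 7.52 CPM per kb, Lamb2 (the laminin beta chain of mature synaptic and fibre basement membranes) at 24.2 ± 6.18 CPM per kb and Timp2 at 23.2 ± 8.67 CPM per kb. Neighbours in this order lay within 1 SD of each other, and the order depended on the controls used: in controls 6 to 10 alone, Lamb2 (27 ± 4.33 CPM per kb, SD, n = 5) and Hspg2 (26.6 ± 3.07 CPM per kb) stood above Dcn (23.6 ± 5.27 CPM per kb). Over all 10 controls, Mxra8 stood 23rd of the 58 with 7.78 ± 2.09 CPM per kb. The lowest was Ltbp2, a microfibril-associated relative of the latent TGF-beta binding proteins, at 0.0949 ± 0.0352 CPM per kb and 2 to 26 reads a library, so its values are imprecise. Elastin (Eln) stood low at 1.91 ± 0.587 CPM per kb, and Postn (periostin) at 0.358 ± 0.127 CPM per kb was lower still.

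**Figure D1:**
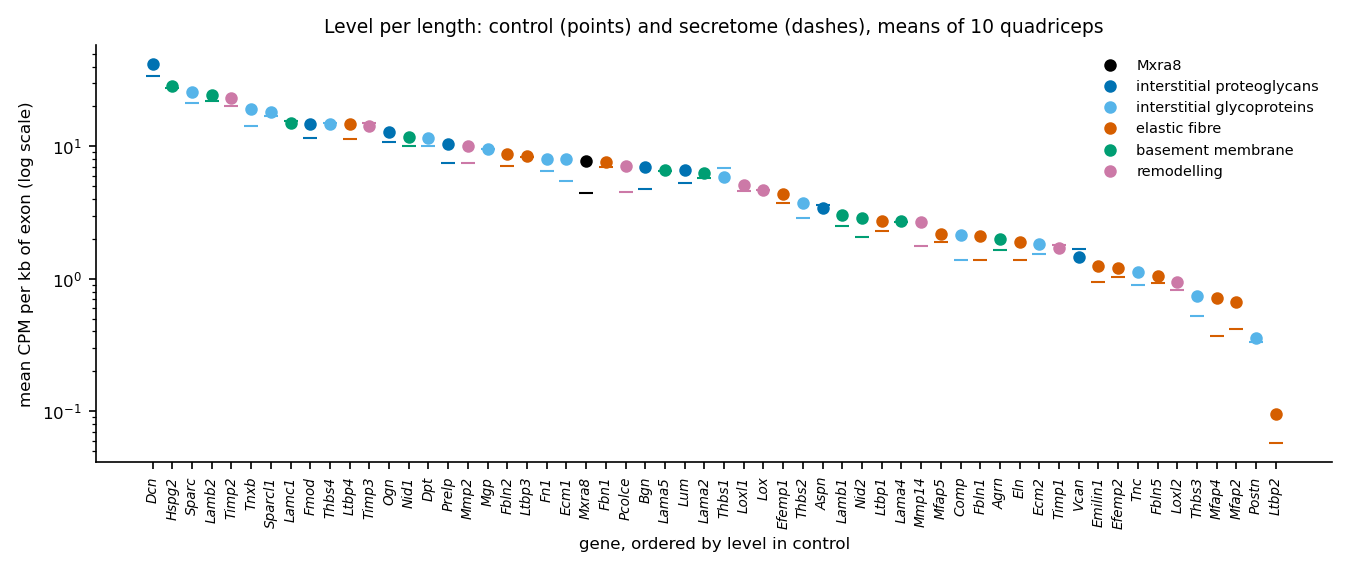
Mean level of each of the 58 genes in CPM per kb of exon (vertical axis, log scale), ordered by control level, as points for 10 control and dashes for 10 secretome muscles, coloured by list. Levels span from 41.5 for Dcn to 0.0949 for Ltbp2, and the dash of Mxra8 lies clearly below its point.

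Mxra8 was lower in secretome-treated muscle. Its level (identifier ENSMUSG00000029070) had a lowest, median and highest value of 16.5, 20.5 and 37.5 CPM in the 10 control muscles and 8.66, 12.5 and 18.6 CPM in the 10 secretome muscles. Of the secretome muscles, 9 of 10 lay below the lowest control, and only secretome 3, at 18.6 CPM, overlapped with controls 7 and 9. No other gene of the 58 had more than 4 secretome muscles below its lowest control, and over all genes tested 0.0622% had at least 9. Means were 22.7 ± 6.1 CPM and 13 ± 2.89 CPM (SD, n = 10 each). This gave a log2 fold change -0.80, SE 0.14, p = 8.94e-06, adjusted p = 0.0647 by edgeR, which misses the 5% threshold, and adjusted p = 7.58e-04 by DESeq2, which passes it. Leaving out 1 muscle at a time moved the edgeR adjusted p between 0.0194 (without secretome 3) and 0.178 (without secretome 10), and it passed in 4 of the 20 fits, those without control 2, 5 or 7 or secretome 3. The log2 fold change stayed between -0.88 and -0.70.

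The lower Mxra8 level was present in both sets of libraries. Within libraries 6 to 15, controls 6 to 10 had 23.4, 16.5, 27.6, 18.1 and 19.4 CPM and secretome muscles 1 to 5 had 16.3, 14.2, 18.6, 13.5 and 8.66 CPM. The groups overlapped, although all 5 secretome muscles lay below the control median (log2 fold change -0.55, SE 0.19, p = 0.0123, adjusted p = 0.45). In the other libraries, controls 1 to 5 had 21, 37.5, 20, 23.9 and 19.6 CPM and secretome muscles 6 to 10 had 10.8, 11.7, 12.9, 11 and 12.2 CPM, without overlap (log2 fold change -1.06, SE 0.19, p = 7.77e-05, adjusted p = 0.103). The difference between the 2 sets missed the threshold (difference -0.50 on the log2 scale, SE 0.27, p = 0.0806, adjusted p = 0.513). Without libraries 1 to 5, the 10 secretome muscles against controls 6 to 10 gave a log2 fold change -0.69, SE 0.15, p = 2.20e-04, adjusted p = 0.218. Secretome muscles 6 to 10 had no controls of their own block of libraries in that comparison. They held 604 to 797 CPM of the fibroblast markers. This lay above 4 of the 5 controls 6 to 10 and all of secretome muscles 1 to 5. Mxra8 in secretome muscles 6 to 10 lay below that of every control. The part of fibroblast content in the Mxra8 level was not tested. On the GENCODE models 7.23% of the exonic length of Mxra8 overlaps the antisense gene Mxra8os, and whether counting used strand is not stated in the sources used here.

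**Figure D2:**
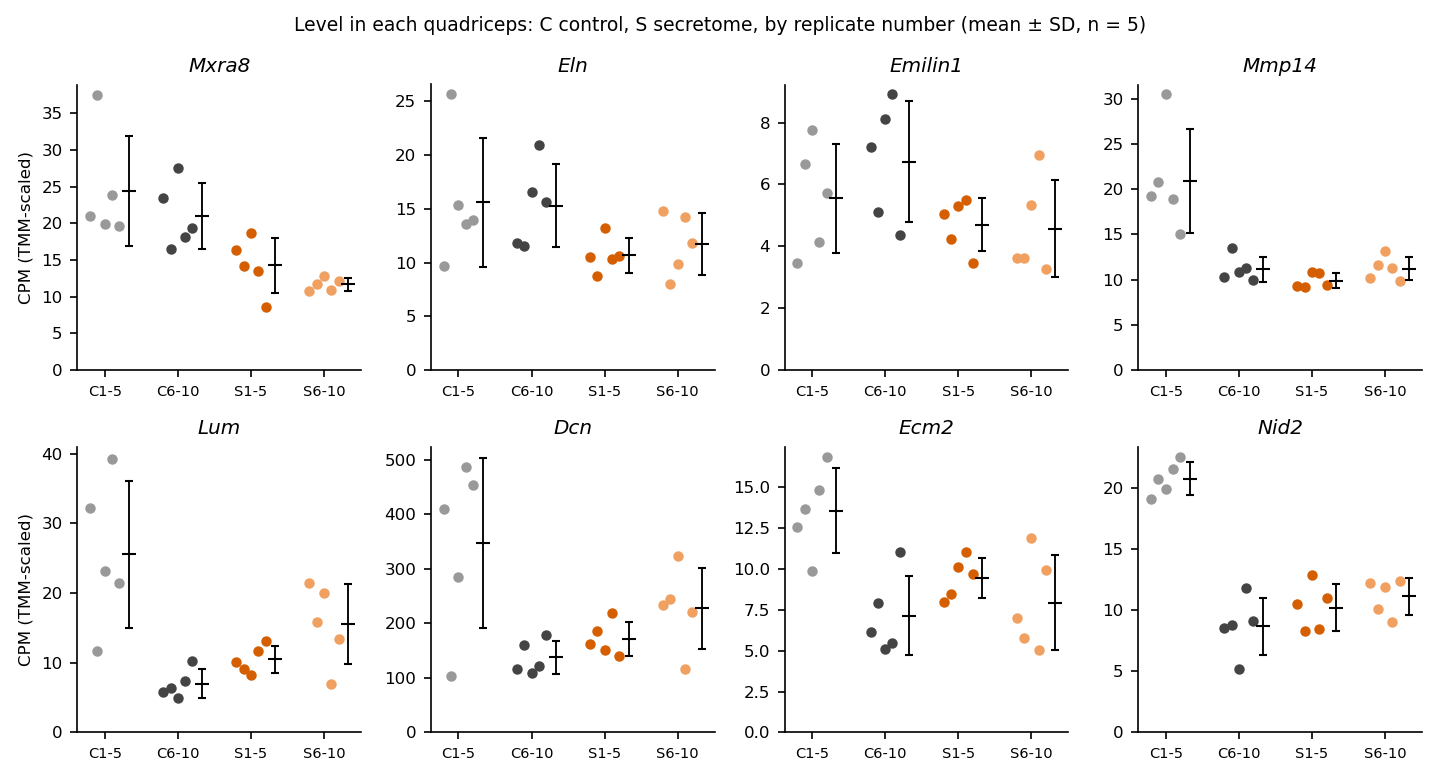
CPM (TMM-scaled, vertical axes from 0) of 8 genes in each quadriceps, as points for control (C) and secretome (S) muscles in blocks of 5 by replicate number, with mean ± SD beside each block. Mxra8 runs from 19.6 CPM or more in controls 1 to 5 to 12.9 CPM or less in secretome muscles 6 to 10, Mmp14 and Nid2 are high in controls 1 to 5 alone, and Lum lies lower in controls 6 to 10 than in most secretome muscles.

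Over all 20 muscles, the 57 tested genes leaned towards lower levels in secretome-treated muscle: 49 had a negative and 8 a positive log2 fold change, with a median of -0.25 beside -0.035 over all 14471 genes tested. By edgeR 0 of the 57 passed a 5% false discovery rate (FDR), beside 0.00691% of all genes (1 gene). By DESeq2 1 did (Mxra8), beside 1.25%, and by limma's voom with sample weights 1 did (Mxra8), beside 0.0207%. At an unadjusted p under 0.05, 12 of the 57 (21.1%) were lower, beside 9.21% of all genes, and 0 were higher, beside 6.52%. Those 12 were Mxra8, 6 of the 14 tested elastic fibre genes (Eln, Fbln1, Mfap4, Emilin1, Ltbp1 and Ltbp2), 2 of the 9 remodelling genes (Mmp14 and Pcolce), and 1 each of the proteoglycans (Bgn), glycoproteins (Ecm1) and basement membrane genes (Nid2).

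The lean was weaker within libraries 6 to 15. There, 37 genes were lower and 20 higher, with a median of -0.081 beside -0.014 over all genes. None passed a 5% FDR by edgeR (0% of all genes) or DESeq2 (0.239% of all genes). At an unadjusted p under 0.05, 4 genes were lower (Mxra8, Eln, Emilin1 and Ltbp2, 7.02% beside 4.92% of all genes) and 2 were higher (Lum and Timp3, 3.51% beside 5.02%), both shares near the background. For 0 of the 57 genes were the 5 secretome muscles all below or all above the 5 controls, beside 1.09% of all genes below and 0.822% above.

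Between libraries 16 to 20 and libraries 1 to 5 the lean was stronger. Here 20 of 58 genes (34.5%) were lower at an unadjusted p under 0.05, beside 9.56% of all genes, and 0 were higher, beside 6.53%. None passed a 5% FDR (0% of all genes; lowest adjusted p = 0.103). For 8 genes all 5 secretome muscles lay below all 5 controls, beside 2.39% of all genes: Mxra8, Bgn, Tnxb, Thbs3, Nid2, Mmp2, Mmp14 and Pcolce.

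The log2 fold change differed between the 2 sets of libraries for 0 of the 57 genes at a 5% FDR, beside 0.0553% of all genes. The lowest adjusted p was 0.107, for Nid2. At an unadjusted p under 0.05 the log2 fold change differed for 11 (19.3% beside 11.1% of all genes). Of these, 10 had the more negative value between libraries 16 to 20 and 1 to 5 and 1, Vcan, the more positive. Treatment and library range cannot be told apart between libraries 16 to 20 and 1 to 5. Such a difference therefore cannot be read as a varying response to treatment. In direction alone, 27 genes were lower in both sets (47.4% beside 32.1% of all genes) and 1 was higher in both (1.75% beside 25.1%). A further 19 were higher within libraries 6 to 15 and lower between the others (33.3% beside 22.9%), and 10 were the reverse (17.5% beside 19.9%).

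Without libraries 1 to 5, more genes were higher than lower. The 10 secretome muscles against controls 6 to 10 gave 38 of 58 genes higher and 20 lower, with a median of 0.14 beside -0.0071 over all genes. At an unadjusted p under 0.05, 5 were lower (Mxra8, Eln, Emilin1, Lamb2 and Ltbp2, 8.62% beside 5.56% of all genes) and 8 were higher (Lum, Dcn, Ogn, Dpt, Efemp1, Mfap5, Nid1 and Timp2, 13.8% beside 6.38%), again with 0 past a 5% FDR. Mxra8, Eln, Emilin1 and Ltbp2 kept a p under 0.05 without controls 1 to 5. The other 8 of the 12 genes lower at that p over 20 muscles did not. This comparison cannot separate treatment from library range, because secretome muscles 6 to 10 had no controls in their own block of libraries. Ttn took 14.2 to 14.7% of the counts in those muscles, and 16.4 to 21.1% in libraries 6 to 15.

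**Figure D3:**
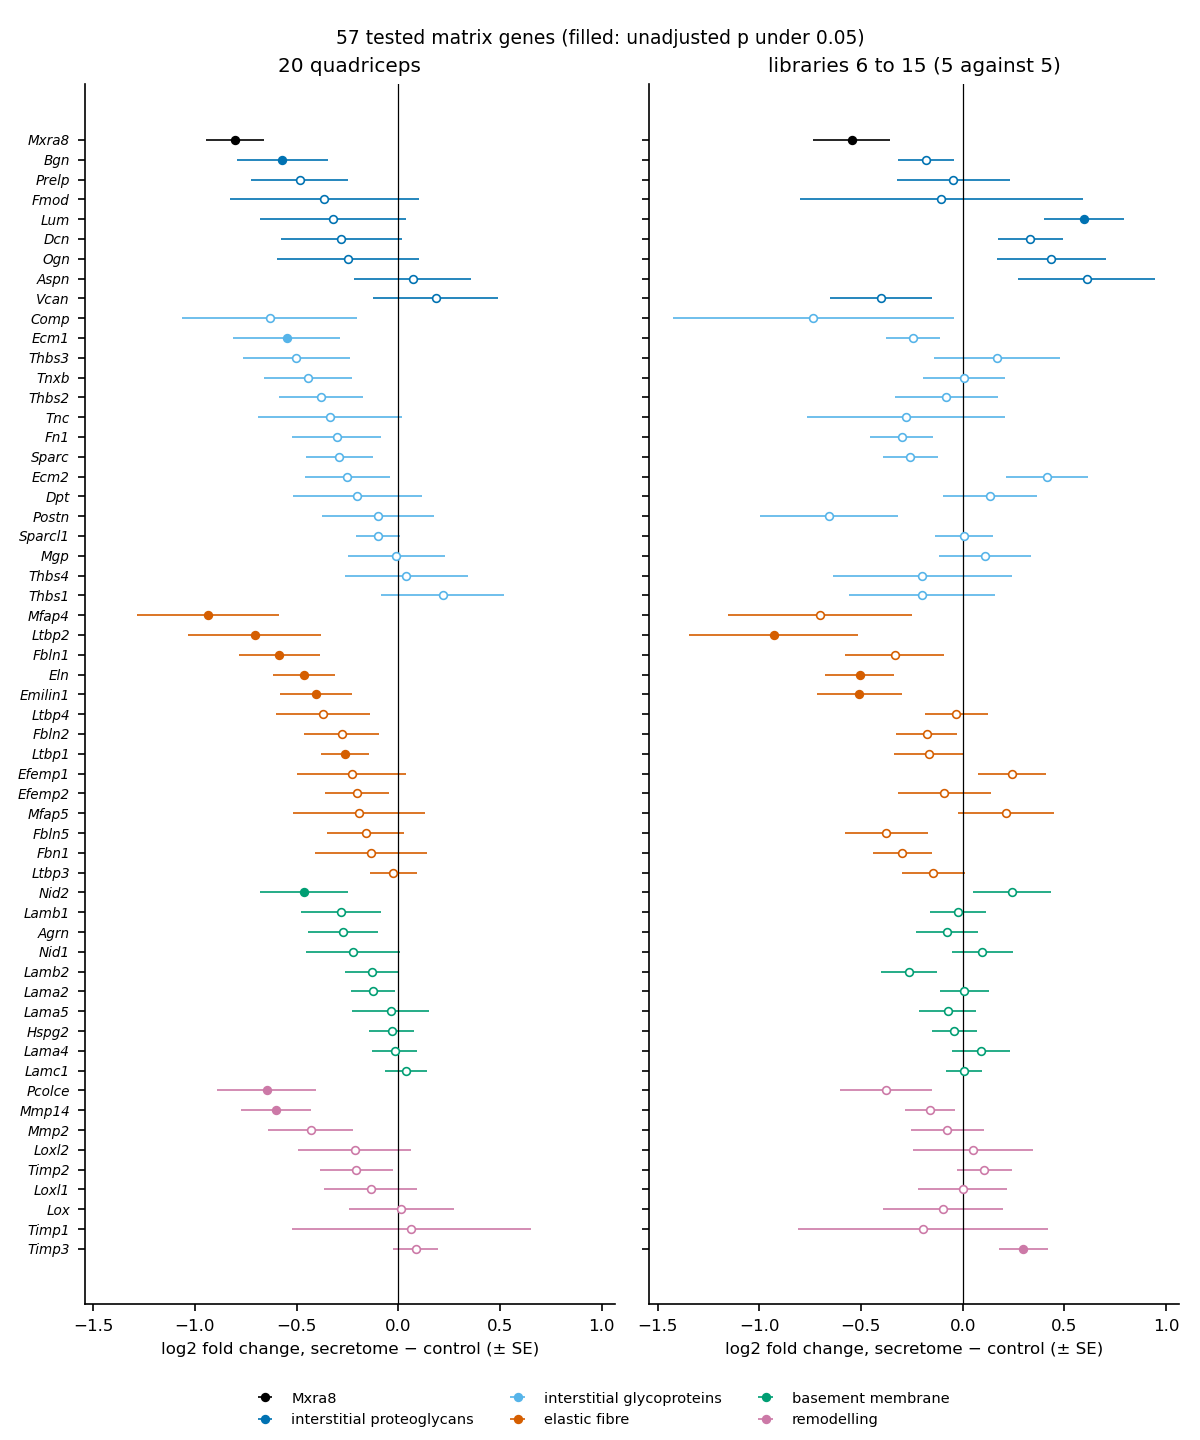
Log2 fold change (secretome − control, horizontal axis, bars ± SE) of the 57 tested genes over 20 muscles (left) and within libraries 6 to 15 (right), coloured by list, with filled points for an unadjusted p under 0.05. On the left 49 points lie below 0 and 12 are filled, all on the lower side. On the right 37 lie below 0 and 6 are filled, 4 lower and 2 higher.

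Among the proteoglycan, glycoprotein, elastic fibre, basement membrane and remodelling lists, elastic fibre genes were most often lower in both sets of libraries. This held for 10 of the 14 tested (71.4% beside 32.1% of all genes). Of the others, 2 were higher within libraries 6 to 15 (Efemp1 and Mfap5, 14.3% beside 22.9%) and 2 were the reverse (14.3% beside 19.9%). The fibrillar and basement membrane collagens, outside these lists, leaned the same way. Of these, 12 of 12 were lower within libraries 6 to 15, beside 7532 of all 14469 genes. Between the other libraries 11 of 12 were lower, beside 8188 of all 14667 genes. Without libraries 1 to 5, most of these collagens were higher. All 14 elastic fibre genes had a negative log2 fold change over 20 muscles (median -0.27, from -0.94 to -0.025). Within libraries 6 to 15, 12 of 14 did (median -0.24). Without libraries 1 to 5, 9 of 15 were lower and 6 higher (median -0.087). At an unadjusted p under 0.05, 3 were lower and 2 higher, beside 5.56% and 6.38% of all genes. Eln, which encodes the elastic core protein itself, had a lowest, median and highest level of 9.67, 14.6 and 25.7 CPM in control and 7.98, 10.5 and 14.8 CPM in secretome muscles (log2 fold change -0.46, SE 0.15, p = 0.00591, adjusted p = 0.181). Within libraries 6 to 15 the controls had 11.8, 11.5, 16.6, 20.9 and 15.6 CPM and the secretome muscles 10.5, 8.7, 13.2, 10.4 and 10.6 CPM, with all 5 secretome muscles below the control median and some overlap (log2 fold change -0.51, SE 0.17, p = 0.00976, adjusted p = 0.449). The values of controls 1 to 5 for Eln, 9.67 to 25.7 CPM, were spread rather than uniformly high, control 2 being the highest of the 20 and control 1 within the secretome range.

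Emilin1, a glycoprotein at the surface between elastin and microfibrils, had the same pattern. It had 3.47, 6.19 and 8.93 CPM at the lowest, median and highest in control and 3.28, 4.64 and 6.96 CPM in secretome muscles (log2 fold change -0.41, SE 0.18, p = 0.0317, adjusted p = 0.275). Within libraries 6 to 15 the controls had 7.2, 5.1, 8.13, 8.93 and 4.35 CPM and the secretome muscles 5.04, 4.24, 5.3, 5.49 and 3.46 CPM, which overlap (log2 fold change -0.51, SE 0.21, p = 0.0305, adjusted p = 0.473). In the other libraries the overlap was wide. Controls 1 to 5 had 3.47, 6.65, 7.76, 4.14 and 5.72 CPM of Emilin1, and secretome muscles 6 to 10 had 3.62, 3.63, 5.34, 6.96 and 3.28 CPM. Ltbp2 was lower too, at its very low level (log2 fold change -0.71, SE 0.33, p = 0.0409, adjusted p = 0.297 over 20 muscles; log2 fold change -0.93, SE 0.41, p = 0.0412, adjusted p = 0.492 within libraries 6 to 15), and 9.34% of its exonic length overlaps an antisense gene. Ltbp2 was named after its values were seen.

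The remaining elastic fibre genes behaved less evenly. Mfap4, a microfibril-associated glycoprotein, had 0.198, 1.37 and 2.86 CPM in control and 0.195, 0.579 and 1.7 CPM in secretome muscles on 3 to 46 reads a library (log2 fold change -0.94, SE 0.35, p = 0.013, adjusted p = 0.213), with all 5 secretome muscles below the control median within libraries 6 to 15 but a large error (log2 fold change -0.70, SE 0.45, p = 0.143, adjusted p = 0.605). Fbln1 (fibulin-1, a calcium-binding glycoprotein of elastic fibres and basement membranes) had 4.63, 9.00 and 14.6 CPM in control and 3.56, 5.77 and 10.5 CPM in secretome muscles (log2 fold change -0.58, SE 0.20, p = 0.00761, adjusted p = 0.193), and 3 of 5 secretome muscles below the control median within libraries 6 to 15 (log2 fold change -0.33, SE 0.24, p = 0.192, adjusted p = 0.646). Neither gene passed a 5% FDR in either comparison. Ltbp4, which holds latent TGF-beta in the matrix and is known as a modifier of muscular dystrophy in mice, was the most abundant of the list per length at 14.7 ± 9.16 CPM per kb. Its high SD came from control 2 at 255 CPM, while all other muscles lay between 52.8 and 104 CPM (log2 fold change -0.37, SE 0.23, p = 0.124, adjusted p = 0.437; within libraries 6 to 15, log2 fold change -0.031, SE 0.15, p = 0.841, adjusted p = 0.95). Fbln2 (fibulin-2) at 8.69 ± 3.37 CPM per kb was the next but Ltbp3 lay close, and its groups overlapped (log2 fold change -0.28, SE 0.18, p = 0.146, adjusted p = 0.46).

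The interstitial proteoglycans were split. In direction, 3 of 8 were lower in both sets of libraries (37.5% beside 32.1% of all genes). A further 4 were higher within libraries 6 to 15 and lower between the others (50% beside 22.9%). The reverse held for 1 (12.5% beside 19.9%). Their median log2 fold change was -0.30 over 20 muscles, 0.14 within libraries 6 to 15 and 0.47 without libraries 1 to 5. Lum (lumican, identifier ENSMUSG00000036446, which limits the width of collagen fibrils) had 5.8, 6.42, 4.96, 7.44 and 10.3 CPM in controls 6 to 10 and 10.1, 9.13, 8.24, 11.7 and 13.1 CPM in secretome muscles 1 to 5. All 5 secretome muscles exceeded the control median and control 10 alone overlapped with them (log2 fold change 0.60, SE 0.20, p = 0.00905, adjusted p = 0.447). Controls 1 to 5, at 32.2, 11.7, 23.2, 39.3 and 21.4 CPM, were mostly above the secretome muscles 6 to 10, at 21.4, 15.9, 20, 7.02 and 13.4 CPM (log2 fold change -0.72, SE 0.33, p = 0.0489, adjusted p = 0.307). Over all 20 muscles both directions together left a small value with a large error (log2 fold change -0.32, SE 0.36, p = 0.381, adjusted p = 0.683), and the sets differed at an unadjusted p only (difference -1.30 on the log2 scale, SE 0.41, p = 0.00482, adjusted p = 0.219).

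Dcn followed the same course. Controls 6 to 10 had 117, 161, 109, 122 and 179 CPM and secretome muscles 1 to 5 had 162, 187, 152, 219 and 141 CPM, all 5 above the control median (log2 fold change 0.33, SE 0.16, p = 0.0552, adjusted p = 0.515), whereas controls 1 to 5 had 409, 104, 285, 486 and 454 CPM, control 2 being the lowest of the 20 muscles. Over 20 muscles Dcn had a log2 fold change -0.28, SE 0.30, p = 0.357, adjusted p = 0.666, and without libraries 1 to 5 a log2 fold change 0.54, SE 0.20, p = 0.0157, adjusted p = 0.333. Ogn (osteoglycin) and Aspn (asporin) also had all 5 secretome muscles above the control median within libraries 6 to 15, with p over 0.05.

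Bgn (biglycan, the close relative of decorin) was the proteoglycan with the smallest p over 20 muscles. It had 23.1, 40.2 and 83.4 CPM in control and 19.4, 26.9 and 44.4 CPM in secretome muscles (log2 fold change -0.57, SE 0.22, p = 0.0182, adjusted p = 0.237), yet within libraries 6 to 15 the difference was -0.18 (SE 0.14, p = 0.208, adjusted p = 0.654) and without libraries 1 to 5 it was 0.076 (SE 0.18, p = 0.673). Controls 1 to 5 held 44.9 to 83.4 CPM and controls 6 to 10 held 23.1 to 35.5 CPM of Bgn, so the 2 blocks of controls did not overlap each other. Prelp, which anchors basement membranes to collagen, had 13.5, 33.7 and 68 CPM in control and 16.4, 26.8 and 42.1 CPM in secretome muscles (log2 fold change -0.48, SE 0.24, p = 0.0555, adjusted p = 0.327) and -0.046 (SE 0.28) within libraries 6 to 15. Vcan (versican, a large hyaluronan-binding proteoglycan, named after its values were seen) ran the other way: 23.9 to 48.1 CPM in secretome muscles 6 to 10 against 11.7 to 42 CPM in controls 1 to 5, but 7.21 to 16.9 CPM in secretome muscles 1 to 5 against 8.91 to 22.9 CPM in controls 6 to 10 (difference 0.90 on the log2 scale, SE 0.41, p = 0.0406, adjusted p = 0.414).

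Fmod (fibromodulin), the second most abundant proteoglycan per length, is typical of tendon and varied 24.1-fold over the 20 muscles. It had 5.29, 43.3 and 128 CPM in control and 6.53, 28.3 and 81.4 CPM in secretome muscles (log2 fold change -0.36, SE 0.47, p = 0.446, adjusted p = 0.728; within libraries 6 to 15, log2 fold change -0.10, SE 0.70, p = 0.885, adjusted p = 0.963), so no difference was detectable with this spread. Comp (cartilage oligomeric matrix protein, also named after its values were seen) varied 51.5-fold. Both had their 3 lowest values in control 8 and secretome 5 and 6, and the summed level of 5 tendon cell markers was 6.22 to 25.5 CPM in control and 4.66 to 19 CPM in secretome muscles. The part of tendon tissue in these genes was not tested.

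**Figure D4:**
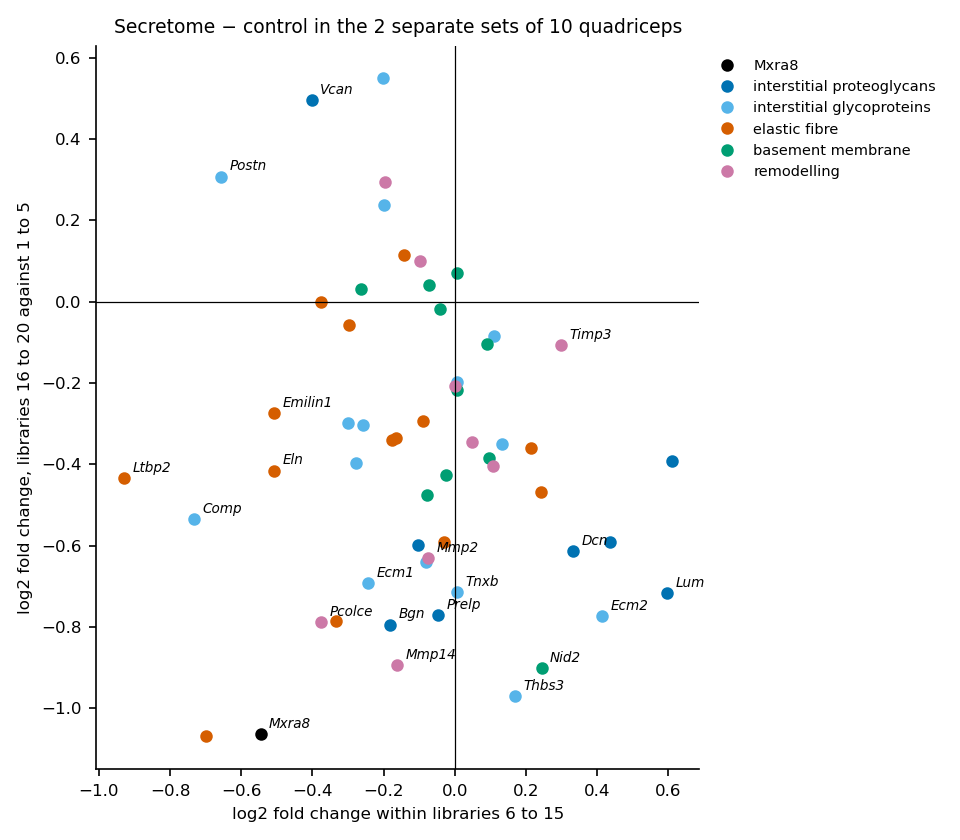
Log2 fold change within libraries 6 to 15 (horizontal axis) against that between libraries 16 to 20 and 1 to 5 (vertical axis) for the 57 genes, 1 point each, coloured by list, the muscles of the axes being different. Mxra8, Eln, Emilin1 and Ltbp2 lie at the lower left, lower on both axes, while Lum, Dcn, Ecm2, Nid2 and Thbs3 lie at the lower right, higher within libraries 6 to 15 and lower between the others.

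The interstitial glycoproteins were mostly lower over 20 muscles (13 of 15, median -0.29) and mixed within libraries 6 to 15 (9 of 15 lower, median -0.20). Ecm1, which binds perlecan and fibulins, had the smallest p over 20 muscles, with 11.2, 14.2 and 35.7 CPM in control and 7.74, 12 and 21.7 CPM in secretome muscles (log2 fold change -0.55, SE 0.26, p = 0.0498, adjusted p = 0.317). Control 1 held 15.6 CPM, controls 2 to 5 held 27.4 to 35.7 CPM and controls 6 to 10 held 11.2 to 12.8 CPM, and within libraries 6 to 15 the value was -0.24 (SE 0.13, p = 0.0885, adjusted p = 0.548). Tnxb (tenascin-X, which bridges collagen fibrils) had 97.7, 235 and 444 CPM in control and 120.3, 171 and 225 CPM in secretome muscles. All 10 secretome muscles lay below its control median (log2 fold change -0.44, SE 0.22, p = 0.0529, adjusted p = 0.323), but the value within libraries 6 to 15 was 0.0062 (SE 0.20).

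Ecm2 (identifier ENSMUSG00000043631), a leucine-rich glycoprotein related to decorin, and Thbs3 (thrombospondin-3) reversed between sets. Ecm2 had 6.17, 7.95, 5.09, 5.49 and 11 CPM in controls 6 to 10 and 7.96, 8.49, 10.1, 11 and 9.69 CPM in secretome muscles 1 to 5, all 5 above the control median (log2 fold change 0.41, SE 0.20, p = 0.059, adjusted p = 0.519). It had 12.6, 13.7, 9.9, 14.8 and 16.9 CPM in controls 1 to 5 and 7.02, 5.78, 11.9, 5.07 and 9.96 CPM in secretome muscles 6 to 10, secretome 8 and 10 lying above the lowest of those controls (difference -1.17 on the log2 scale, SE 0.32, p = 0.00156, adjusted p = 0.169). Thbs3, at 0.926, 3.48 and 7.21 CPM in control and 1.46, 2.77 and 3.46 CPM in secretome muscles, had -0.50 (SE 0.26, p = 0.069) over 20 muscles and 0.17 (SE 0.31) within libraries 6 to 15, and 6.59% of its exonic length overlaps Mtx1 on the opposite strand.

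Fn1 (fibronectin) and Sparc had negative values in both comparisons, with p over 0.05 in each. Fn1 had -0.30 (SE 0.22, p = 0.178) over 20 muscles and -0.30 (SE 0.15, p = 0.0706) within libraries 6 to 15. Sparc had -0.29 (SE 0.16, p = 0.0898) and -0.26 (SE 0.14, p = 0.0800). Both turned positive without libraries 1 to 5 (0.16 and 0.040). For Fn1, each of secretome muscles 6 to 10 lay above each of secretome muscles 1 to 5, and for Sparc these blocks overlapped.

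Postn, Nid1 and Timp1 encode proteins that the study lists in the secretome product itself, so their RNA in the recipient muscle was read separately. Postn, a matricellular protein of healing tissue, had 1.85, 3.19 and 5.75 CPM in control and 0.86, 2.31 and 7.62 CPM in secretome muscles (log2 fold change -0.10, SE 0.27, p = 0.717, adjusted p = 0.881). In libraries 6 to 15 all 5 secretome muscles lay below the control median (log2 fold change -0.66, SE 0.34, p = 0.0727, adjusted p = 0.533), while the highest of the 20 muscles was secretome 6 at 7.62 CPM. Nid1 (nidogen-1) had 42.5, 77.3 and 132 CPM in control and 44.2, 71.2 and 119 CPM in secretome muscles (log2 fold change -0.22, SE 0.23, p = 0.351, adjusted p = 0.661; within libraries 6 to 15, 0.10, SE 0.15; without libraries 1 to 5, 0.48, SE 0.21). Timp1, the inducible metalloproteinase inhibitor, had the widest range of the 58 genes as a fold (119), from 0.0515 CPM (1 read) in secretome 3 to 6.13 CPM in control 3, and its groups overlapped throughout (log2 fold change 0.065, SE 0.59, p = 0.913, adjusted p = 0.967). None of these 3 transcripts passed a 5% FDR by edgeR in any of these comparisons.

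Basement membrane genes had the narrowest range of differences of these lists. Over 20 muscles their log2 fold changes ran from -0.46 to 0.038 (median -0.13), and within libraries 6 to 15 from -0.26 to 0.24 with 5 higher and 5 lower. Hspg2, at 405 ± 64.2 CPM in control and 396 ± 72.5 CPM in secretome muscles (SD, n = 10 each), had a log2 fold change -0.033, SE 0.11, p = 0.763, adjusted p = 0.903. Lamb2 had 91.7, 142 and 204 CPM in control and 105, 132 and 172 CPM in secretome muscles (log2 fold change -0.13, SE 0.13, p = 0.334, adjusted p = 0.65; within libraries 6 to 15, log2 fold change -0.26, SE 0.14, p = 0.0742, adjusted p = 0.536). Agrn (agrin, which clusters acetylcholine receptors at the neuromuscular junction) gave a log2 fold change -0.27, SE 0.17, p = 0.129, adjusted p = 0.444, its highest muscle being control 2 at 36 CPM. Lamb1 gave a log2 fold change -0.28, SE 0.20, p = 0.168, adjusted p = 0.489 and -0.024 (SE 0.14) within libraries 6 to 15.

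Nid2 (nidogen-2, identifier ENSMUSG00000021806, which links the laminin and collagen IV networks) had the lowest log2 fold change of the list over 20 muscles. Controls 1 to 5 had 19.1, 20.8, 20, 21.6 and 22.6 CPM, above each of the other 15 muscles. Controls 6 to 10 had 8.54, 8.77, 5.22, 11.8 and 9.17 CPM, secretome muscles 1 to 5 had 10.5, 8.27, 12.9, 8.48 and 11 CPM and secretome muscles 6 to 10 had 12.3, 10.1, 11.9, 9.01 and 12.4 CPM, which overlap among themselves. The value over 20 muscles (log2 fold change -0.46, SE 0.22, p = 0.0439, adjusted p = 0.303) thus combined -0.90 (SE 0.13, p = 8.59e-06, adjusted p = 0.103) between libraries 16 to 20 and 1 to 5 with 0.24 (SE 0.19, p = 0.223) within libraries 6 to 15 (difference -1.13 on the log2 scale, SE 0.24, p = 8.85e-05, adjusted p = 0.107). Of its exonic length 8.45% overlaps Rtraf on the opposite strand. Nid2 was not alone in separating the 2 blocks of controls. Nid1 held 91.4 to 132 CPM in controls 1 to 5 and 42.5 to 63.2 CPM in controls 6 to 10. Lamb1 held 35.8 to 48.2 and 14.9 to 23.9 CPM in these blocks. Lama5 ran the other way with overlap, at 47.4 to 76.2 and 64 to 121 CPM.

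Among the remodelling genes, Mmp14 (identifier ENSMUSG00000000957), the membrane-bound metalloproteinase that activates MMP2, had the smallest p of the 57 genes after Mxra8. It had 9.92, 14.3 and 30.5 CPM in control and 9.19, 10.5 and 13.1 CPM in secretome muscles, and all 10 secretome muscles lay below the control median (log2 fold change -0.60, SE 0.17, p = 0.00172, adjusted p = 0.148; DESeq2 adjusted p = 0.0556). Controls 1 to 5 had 19.2, 20.7, 30.5, 19 and 15.1 CPM, above each of the other 15 muscles. Inside libraries 6 to 15 the value was small (log2 fold change -0.16, SE 0.12, p = 0.206, adjusted p = 0.653), and without libraries 1 to 5 it was -0.076 (SE 0.11, p = 0.483).

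Mmp2 (gelatinase A) and Pcolce, the enhancer of procollagen C-propeptide cleavage, were also higher in most of controls 1 to 5. Mmp2 held 41.6 to 51.6 CPM in controls 1 to 5 and 13.1 to 29.4 CPM in controls 6 to 10, with 17.6 to 37 CPM in secretome muscles (log2 fold change -0.43, SE 0.21, p = 0.0522, adjusted p = 0.322). Pcolce held 25.8 to 49.7 CPM in controls 1 to 5 and 9.46 to 25.9 CPM in controls 6 to 10, control 9 reaching the level of control 1. It had 9.46, 25.9 and 49.7 CPM in control and 10.8, 18.6 and 23.4 CPM in secretome muscles (log2 fold change -0.65, SE 0.24, p = 0.0141, adjusted p = 0.221), -0.38 (SE 0.23, p = 0.12) within libraries 6 to 15 and 0.00028 (SE 0.22) without libraries 1 to 5.

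Timp3, the inhibitor that stays bound to the matrix, was the remodelling gene higher at an unadjusted p under 0.05 within libraries 6 to 15. Controls 6 to 10 had 100.4, 118, 103, 84.5 and 119 CPM and secretome muscles 1 to 5 had 109, 144, 111, 136 and 141 CPM, all 5 above the control median with overlap (log2 fold change 0.30, SE 0.12, p = 0.0279, adjusted p = 0.47). Over 20 muscles the value was 0.086 (SE 0.11, p = 0.45), and 21.3% of its exonic length overlaps Syn3 on the opposite strand. Timp2 had 46.8, 78.3 and 152 CPM in control and 57.5, 76.5 and 113 CPM in secretome muscles (log2 fold change -0.21, SE 0.18, p = 0.259, adjusted p = 0.582; within libraries 6 to 15, 0.11, SE 0.13; without libraries 1 to 5, 0.30, SE 0.14). The cross-linking enzymes Lox, Loxl1 and Loxl2 had p over 0.05 in each of these comparisons.

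The other tested genes of the set had smaller or less certain values over 20 muscles. Among the proteoglycans, Ogn had a log2 fold change of -0.25 (SE 0.35) and Aspn one of 0.071 (SE 0.29). Among the glycoproteins, the thrombospondins Thbs1, Thbs2 and Thbs4 had log2 fold changes of 0.22 (SE 0.30), -0.38 (SE 0.20) and 0.040 (SE 0.30), so the family shared no direction. Tnc (tenascin-C), Sparcl1, the calcification inhibitor Mgp and the decorin-binding Dpt (dermatopontin) had -0.34 (SE 0.35), -0.10 (SE 0.11), -0.010 (SE 0.24) and -0.20 (SE 0.32) on the same scale.

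Of the other elastic fibre genes, Ltbp1 was lower at an unadjusted p (log2 fold change -0.26, SE 0.12, p = 0.0368, adjusted p = 0.287), with -0.17 (SE 0.17, p = 0.346) within libraries 6 to 15. The microfibril backbone Fbn1 (fibrillin-1) had a log2 fold change of -0.13 (SE 0.28), -0.30 (SE 0.15, p = 0.0589) within libraries 6 to 15, and 20.1% of its exonic length overlaps an antisense gene. Its large error over 20 muscles set it apart from Eln, whose SE was 0.15. The fibulins Fbln5, Efemp1 and Efemp2 had -0.16, -0.23 and -0.20, and Mfap5 and Ltbp3 had -0.19 and -0.025. The laminin chains Lama2, Lama4, Lama5 and Lamc1, with log2 fold changes of -0.12, -0.018, -0.037 and 0.038, lay close to 0, as did Lox at 0.014, beside -0.14 for Loxl1 and -0.21 for Loxl2.

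Seen muscle by muscle, the matrix genes stood high or low together in blocks of libraries. Of the 57 tested genes, 36 to 50 stood above their median over the 20 muscles in each of controls 1 to 5, 11 to 28 in each of controls 6 to 10, 9 to 28 in each of secretome muscles 1 to 5 and 26 to 45 in each of secretome muscles 6 to 10. Fibroblast markers followed the same order of blocks, and the summed level of the 5 muscle fibre markers, mostly Ttn, was lowest in controls 1 to 5. Between libraries 16 to 20 and 1 to 5, Acta1, Myh4 and Ttn were higher at p under 0.05 (60% beside 6.53% of all genes). Ckm and Mb had p over 0.05 there. All 7 fibroblast markers (Pdgfra, Ly6a, Cd34, Dpp4, Pi16, Clec3b and Gsn) had reads in every muscle. Of these, 7 of 7 had a negative log2 fold change over 20 muscles (median -0.39), 0 at p under 0.05, beside 9.21% of all genes lower. Within libraries 6 to 15, 5 of 7 did (median -0.13). Between libraries 16 to 20 and 1 to 5, 5 of 7 were lower at p under 0.05 (71.4% beside 9.56% of all genes). Without libraries 1 to 5, 6 of 7 were higher (median 0.31), 1 at p under 0.05, beside 6.38% of all genes. Their part in the matrix results was not tested.

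**Figure D5:**
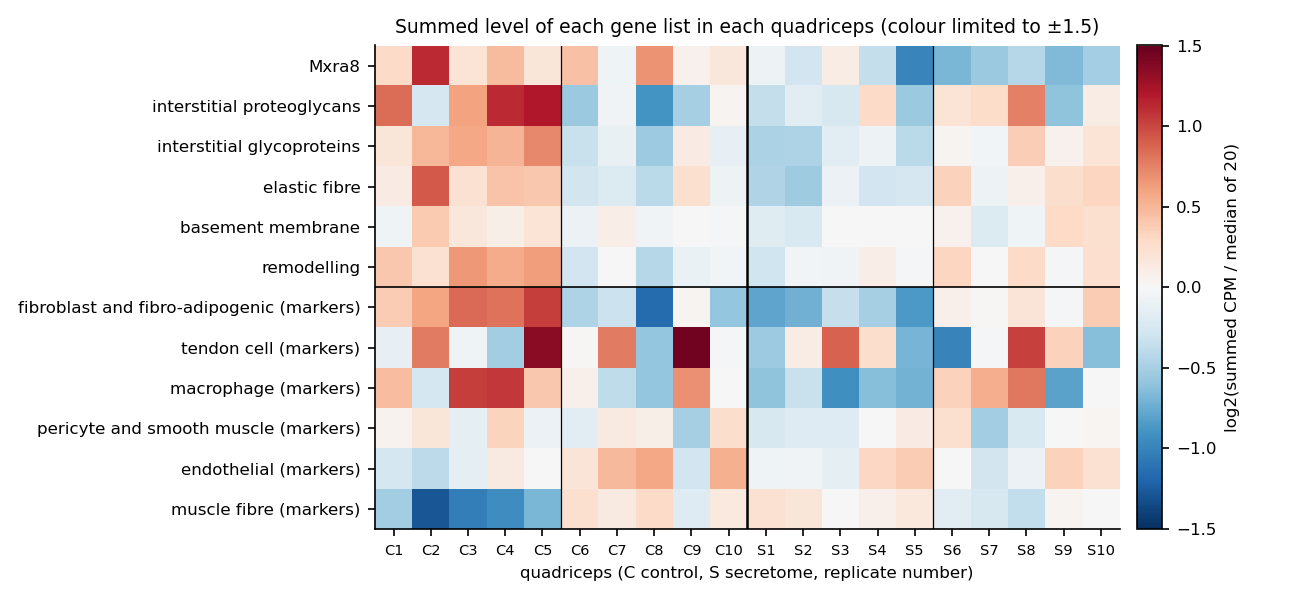
Summed CPM of each gene list (rows, with cell type markers under the line) in each quadriceps (columns), coloured as log2 of the ratio to the median of the 20 muscles, red above and blue below. Controls 1 to 5 are red for most matrix lists and for fibroblast markers and blue for muscle fibre markers, and Mxra8 is blue in 9 of 10 secretome muscles.

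Some macrophage markers were lower in secretome muscles, at an unadjusted p. Of the 5 (Cd68, Adgre1, C1qa, Csf1r and Mrc1), all with reads in every muscle, 3 (Csf1r, Adgre1 and C1qa) were lower at p under 0.05 over 20 muscles, beside 9.21% of all genes, and the same 3 within libraries 6 to 15, beside 4.92%, and Cd68 and Mrc1 were not. Between libraries 16 to 20 and 1 to 5, 1 of 5 was lower at that p (20% beside 9.56% of all genes). Without libraries 1 to 5, 1 of 5 was lower, beside 5.56% of all genes, with 2 of 5 positive. The smallest p was that of Csf1r, the receptor for colony-stimulating factor 1, at a log2 fold change -0.76, p = 0.00188, adjusted p = 0.15 and a log2 fold change -0.82, p = 0.00126, adjusted p = 0.404 (DESeq2 over 20 muscles, adjusted p = 0.0455). The summed level was 31.5 to 75.4 CPM in controls 6 to 10 and 24.9 to 37.5 CPM in secretome muscles 1 to 5, beside 39.2 to 98.5 CPM in controls 1 to 5 and 27.1 to 81.7 CPM in secretome muscles 6 to 10. Of the 5 pericyte and smooth muscle markers, 4 had a negative log2 fold change over 20 muscles. At p under 0.05, 2 were lower (40% beside 9.21% of all genes). These were Acta2, the smooth muscle actin of pericytes and vessels (log2 fold change -0.54, p = 0.00401, adjusted p = 0.166), and Pdgfrb (log2 fold change -0.22, p = 0.0332, adjusted p = 0.278). Within libraries 6 to 15, Notch3 alone was lower at that p (20% beside 4.92% of all genes), with a log2 fold change -0.32, p = 0.0273, adjusted p = 0.47. The 5 markers summed to 204 to 362 CPM in control and 201 to 339 CPM in secretome muscles, of which Rgs5 averaged 180 CPM in each group. Endothelial markers summed to 91.3 to 179 and 99.1 to 156 CPM, adipocyte markers to 18.5 to 119 and 9.24 to 50.5 CPM, and Schwann cell markers to 14.6 to 24.4 and 11.4 to 22.3 CPM. Neutrophil markers (1.25 to 86.7 and 1.46 to 91.6 CPM) and red blood cell markers (91.7 to 1106 and 92.1 to 876 CPM) varied widely in both groups, and the neutrophil genes S100a8, S100a9 and Retnlg had 0 reads in 1, 1 and 3 muscles.

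Other genes of the matrix system were read by the same tests. Of 12 fibrillar and basement membrane collagens, all 12 had a negative log2 fold change over 20 muscles (median -0.39) and all 12 within libraries 6 to 15 (median -0.33), with 0 past a 5% FDR by edgeR or, over 20 muscles, DESeq2. Without libraries 1 to 5, 9 of the 12 were higher (median 0.16). At an unadjusted p under 0.05, 1 was lower over 20 muscles (8.33% beside 9.21% of all genes) and 3 within libraries 6 to 15 (25% beside 4.92%), the smallest p there being those of Col4a1 (log2 fold change -0.48, p = 0.00552, adjusted p = 0.415) and Col4a2 (log2 fold change -0.32, p = 0.0196, adjusted p = 0.452), the paired chains of collagen IV. Of 12 collagen processing genes, 10 were lower and 2 higher over 20 muscles, 2 and 1 of them at an unadjusted p under 0.05 (all genes, 9.21% lower and 6.52% higher), with the smallest p for Crtap, a partner of prolyl 3-hydroxylase (log2 fold change -0.59, p = 0.00506, adjusted p = 0.174), and the procollagen C-proteinase Bmp1 (log2 fold change -0.43, p = 0.0294, adjusted p = 0.271).

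At the same unadjusted p, 2 of 13 matrix receptors were higher over 20 muscles (15.4% beside 6.52% of all genes) and 0 lower (beside 9.21%). These were the integrin chains Itgb1 (log2 fold change 0.22, p = 0.0187, adjusted p = 0.239) and Itgav (log2 fold change 0.25, p = 0.0216, adjusted p = 0.246). Within libraries 6 to 15, 0 were higher (beside 5.02%) and 2 lower (15.4% beside 4.92%). The lower ones were the integrin chains Itga7 (log2 fold change -0.35, p = 0.00378, adjusted p = 0.415) and Itga5 (log2 fold change -0.65, p = 0.0157, adjusted p = 0.452). In direction alone, 8 receptors were higher and 5 lower over 20 muscles, and 6 higher and 7 lower within libraries 6 to 15. Of 14 other matrix proteases and inhibitors, 9 were higher and 5 lower over 20 muscles, 0 of them at a p under 0.05 there or within libraries 6 to 15, the smallest p over 20 muscles being those of Ctsk (cathepsin K; log2 fold change -0.52, p = 0.0728, adjusted p = 0.363) and Plau (urokinase; log2 fold change -0.44, p = 0.076, adjusted p = 0.369). Of the 4 tested CCN matricellular genes, at an unadjusted p under 0.05, Ccn5 was lower (log2 fold change -0.80, p = 0.0111, adjusted p = 0.206) and Ccn2, a TGF-beta and mechanical response gene, was higher (log2 fold change 0.47, p = 0.0229, adjusted p = 0.251), the latter with a log2 fold change 0.92, p = 5.30e-05, adjusted p = 0.103 between libraries 16 to 20 and 1 to 5 and a log2 fold change -0.048, p = 0.862, adjusted p = 0.957 within libraries 6 to 15. None of these genes passed a 5% FDR by edgeR.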

How the data were processed

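RNA of 20 quadriceps muscles, 10 per group, was sequenced as rRNA-depleted total RNA from stranded libraries. The authors deposited raw counts per Ensembl gene, whole numbers that are not normalized. The submitters' processing notes name cutadapt 1.16, STAR 2.7.9a, featureCounts 1.6.3, DESeq2 1.34.0 and GRCm39. The annotation release and the strand setting are not given in the sources used here. Symbols and exonic lengths came from GENCODE M21, and promoter windows from RefSeq (GRCm38.p6).

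Here, counts were fitted across all genes in R 4.3.3 with edgeR 4.0.16 (filterByExpr, TMM, robust quasi-likelihood F-test) and adjusted by Benjamini-Hochberg at 5%, with DESeq2 1.42.0 and voom (limma 3.58.1) as alternatives. Treatment was the only term in the fits over 20 muscles, over libraries 6 to 15 and over the other 10. A model with 4 groups tested the difference between the latter. The scripts were tested on simulated data. The genes, the lists and the split by library number were chosen with earlier results of these data known. Genes were named by rule: Mxra8, and in each list those past the FDR, the 3 with the smallest p over 20 muscles, the 2 within libraries 6 to 15, the 2 with the highest level, those with opposite signs in the 2 comparisons at p under 0.05, and Postn, Nid1 and Timp1. Each muscle came from a separate mouse.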

Additional observations from a re-analysis of the deposited data

Results flagged for a closer look

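In each gene and group of 10 muscles, the log2 CPM of the highest and the lowest muscle was compared with its nearest neighbour by Dixon's ratio. Of 114 such groups, 4 had a muscle past its 95% critical value, and chance alone passes about 1 group in 20, or 5.7 of 114. Fmod, a tendon-rich proteoglycan, was lowest in control 8 at a log2 CPM of 2.43. Comp, another gene typical of tendon and cartilage, was lowest in secretome 5 at -1.5002. Mgp, an inhibitor of calcification, was highest in secretome 8 at 4.63. Ltbp4 was highest in control 2 at 7.99. None of these 4 genes passed an unadjusted p of 0.05 over 20 muscles or within libraries 6 to 15.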

How the results depend on the processing

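Over 20 muscles, the count of genes past a 5% FDR by edgeR, 0, became 1 with no filter on low counts, with voom, with DESeq2 and at a 10% FDR, and 0 to 1 when single muscles were left out, the gene being Mxra8 in each case. The 12 genes lower at an unadjusted p under 0.05 (21.1% beside 9.21% of all genes) became 6 with the replicate number as a block (10.5% beside 6.99%), 2 with a term for the library range (3.51% beside 3.34%, near the background), 6 with voom (10.5% beside 5.99%) and 5 without libraries 1 to 5 (an alternative added after the data were seen), and 7 to 16 with each muscle left out, 7 without control 3 and 16 without control 8. With the library range as a term, the treatment effect rests on libraries 6 to 15 alone, the only range with both treatments. Leaving out libraries 1 to 5 does not separate range from treatment, because secretome muscles 6 to 10 then have no controls in their range. The 0 genes higher became 8 without libraries 1 to 5 and stayed 0 to 0 with each muscle left out, and the median log2 fold change became 0.14 without libraries 1 to 5 and -0.32 to -0.15 with each muscle left out. Within libraries 6 to 15, 4 genes were higher (6.9% beside 3.75%) and 9 lower (15.5% beside 4.48%) with no filter, and with each muscle left out 1 to 6 were higher, 2 to 8 lower, 0 to 0 past the FDR, and the median was -0.16 to -0.041.

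Whether the replicate numbers pair the muscles could not be decided, because same-numbered muscles stood in different blocks of libraries. The deviations of same-numbered muscles from their group means correlated between -0.24 and 0.22 over 10 pairs, with 2 over 0.1, and the replicate block left 0 genes past the FDR, 0 higher and a median of -0.19. Without libraries 1 to 5, log2 fold changes that were negative over 20 muscles turned positive for Bgn (0.076), Prelp (0.064), Dcn (0.54), Lum (0.90), Ecm1 (0.23), Tnxb (0.18), Thbs3 (0.15), Ecm2 (0.29), Fn1 (0.16), Sparc (0.040), Ltbp4 (0.14), Fbln2 (0.15), Nid2 (0.30), Lamb1 (0.30), Hspg2 (0.060), Pcolce (0.00028), Mmp2 (0.20), Timp2 (0.30) and Nid1 (0.48). With a term for the library range they turned for Dcn (0.32), Lum (0.59), Thbs3 (0.16), Ecm2 (0.40), Nid2 (0.23), Timp2 (0.096) and Nid1 (0.086), while Timp1 (-0.21) and Vcan (-0.41) turned negative. Voom turned Lum (0.15), and no filter turned Tnxb (-0.0026) within libraries 6 to 15. Leaving out single muscles changed the sign over 20 muscles of Hspg2 (-0.098 to 0.019), Postn (-0.39 to 0.041) and Timp1 (-0.24 to 0.65). Within libraries 6 to 15 it changed that of Agrn (-0.20 to 0.028), Fmod (-0.46 to 0.17), Hspg2 (-0.088 to 0.024), Lamb1 (-0.11 to 0.042), Ltbp4 (-0.13 to 0.12), Mmp2 (-0.21 to 0.050), Nid1 (-0.032 to 0.20), Prelp (-0.24 to 0.097), Thbs3 (-0.018 to 0.35), Timp1 (-0.80 to 0.25) and Tnxb (-0.12 to 0.22). The causes were not tested. Low counts limit Ltbp2, Mfap4 and Timp1 (2 to 26, 3 to 46 and 1 to 109 reads a library).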
